A study of Mus musculus with 79 samples.

Results

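Sorted Tbx6+ cells of a Tbx6 knockout (KO) and of wild-type (WT) embryos were compared by RNA-seq at Theiler stage TS14, with 1 library per genotype. Of the 23983 gene symbols in the knockout table, 8046 had at least 5 FPKM (fragments scaled to transcript length and to the mapped fragments of the library) in 1 of the 2 libraries, and 7720 of these remained once small RNA genes, numbered gene models and ribosomal protein pseudogenes were left out. Differences are KO minus WT on the log2(FPKM + 1) scale, which understates the change of genes with low values. With 1 library for each genotype there is no replicate error and no p-value for this comparison, and every difference between the pair describes these 2 libraries. The series holds 79 mouse samples on neuro-mesodermal progenitors, and it sets the Tbx6 knockout beside a knockout of T (Brachyury).

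Both Tbx6+ libraries were labelled strain C57BL/6J and came from the caudal ends of embryos that had been grown from embryonic stem (ES) cells by tetraploid complementation, a method in which the embryo proper derives from the injected ES cells. Tissue was pooled, dissociated with trypsin and sorted by flow cytometry, and strand-specific libraries were made from 80 to 100 ng of rRNA-depleted RNA with 15 PCR cycles. The labels do not say how Tbx6+ cells were marked for the sort, which part of Tbx6 the knockout removes or how many ES cell lines were used. The genotype labels conflict: the library titled Tbx6 KO has a source description naming WT embryos, and the library titled WT has one naming Tbx6-/- embryos. The titles are used here. The library titled WT had 31.5 FPKM of Tbx6 and the library titled Tbx6 KO had 10.2 FPKM, so Tbx6 was lower in the library whose title calls it the knockout, though not absent. If the source descriptions were right, every direction given here would be reversed. Tbx6 itself (chr7:126781483-126785548, GRCm38.p6) does not enter the counts over all genes, since cells were sorted for it and it is the targeted gene. It is a member of the presomitic list and marker set and enters their counts unless said otherwise.

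Tbx6 is a T-box transcription factor of the presomitic mesoderm, the unsegmented tissue that buds off somites. Neuro-mesodermal progenitors at the tail end of the embryo carry both T and the neural factor Sox2, and they supply presomitic mesoderm as well as spinal cord. Mouse embryos without Tbx6 are known for forming ectopic neural tubes in place of posterior somites, and Tbx6 is known to repress Sox2 and to act with Wnt and Notch signals on Dll1, Msgn1 and Mesp2.

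Among 7719 genes compared, 193 (2.5%) were at least 2-fold higher and 123 (1.59%) at least 2-fold lower in the Tbx6 KO library. Of these, 35 and 28 passed 4-fold. The counts depend on the settings: they were 91 and 54 with a pseudocount of 5 in place of 1, 323 and 199 with a minimum of 1 FPKM, and 87 and 41 with a minimum of 20 FPKM. The median difference was -0.04 and the 5th to 95th percentiles ran from -0.55 to 0.69. The spacing of low FPKM values gave a depth of about 34.2 M fragments for WT and of 43.5 M fragments for KO, at which a 1 kb transcript at 5 FPKM rests on 171 and 217 fragments. For such a transcript the 95% counting interval of the log2 ratio is ±0.29 at 5 FPKM and ±0.65 at 1 FPKM, which covers counting error only. The genes nearest the 5 FPKM minimum were Sharpin, Pias1 and Grrp1 just inside it and Prkx, Abhd5 and Med25 just outside. At the 2-fold threshold, Ccnjl, Chd3os and Zfp85 were just counted as higher while Pde4d, Hoxa6 and Ciart were not, and Snrpn, Snhg7 and Col4a1 were just counted as lower while Cadm1, Uaca and Kif22 were not.

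**Figure D1:**
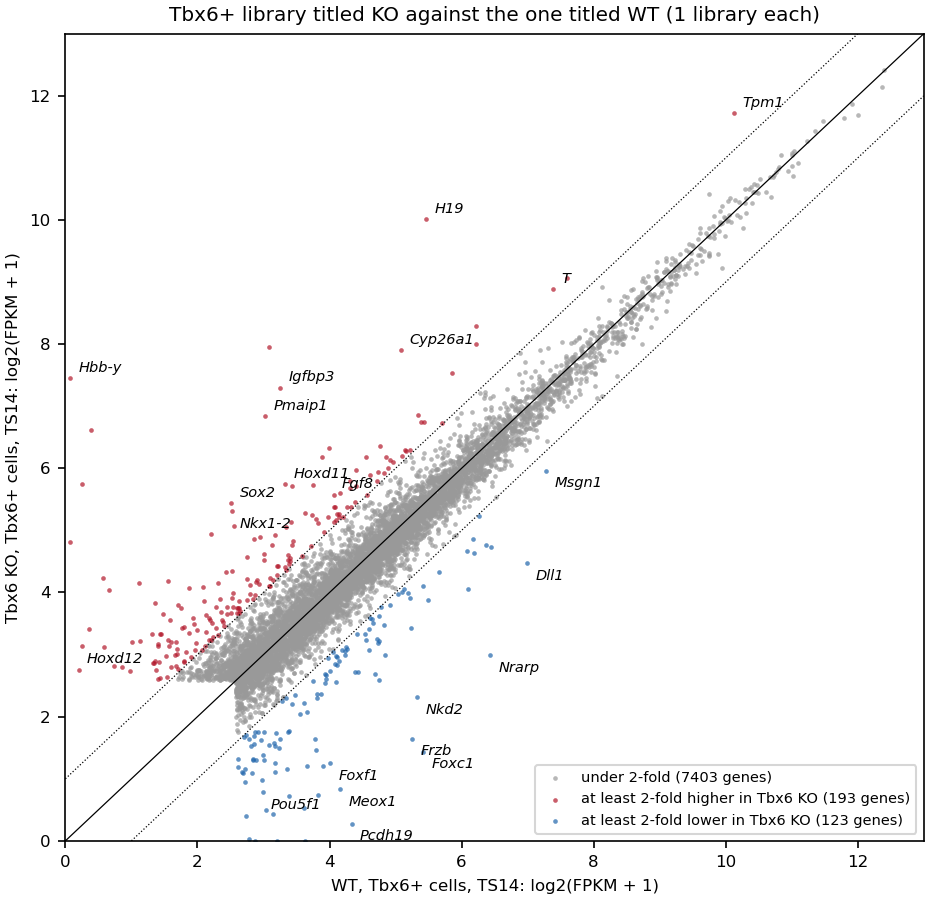
Each point is 1 of 7719 genes, with log2(FPKM + 1) in the WT library on the x axis and in the Tbx6 KO library on the y axis, and dotted lines mark a 2-fold difference on that scale. Genes of the presomitic mesoderm such as Pcdh19, Foxc1, Nrarp and Dll1 lie below the lines, and Sox2, Nkx1-2, T, Cyp26a1 and Hoxd11 lie above them.

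The presomitic and paraxial mesoderm program was lower in the Tbx6 KO library. Of 14 genes of this list above the minimum, 11 were at least 2-fold lower and 0 were 2-fold higher, with a median of -1.54 against -0.04 over all genes. Without Tbx6 the count was 10 of 13 and the median -1.53. Of the 14 genes, 6 reached the minimum through the WT library alone (Meox1, Foxc1, Foxc2, Pcdh19, Aldh1a2, Lfng), which favours lower values, and of the 8 with at least 5 FPKM in both libraries 5 were lower. With a minimum of 20 FPKM, 5 of 7 were lower, and of these Foxc1 and Tbx6 reached it through the WT library alone. Tbx6 is among the lower genes in both of these counts. Of 12 marker genes fixed for this tissue, Tbx6 included, 11 had at least 1 FPKM in WT and 7 in KO. Their summed levels were 440 and 132 FPKM, so the WT library carried the markers of its labelled cell type. In bulk RNA, fewer cells of a type and less RNA per cell cannot be told apart.

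The Notch ligand and direct Tbx6 target Dll1 (chr17:15367354-15376932) had 126 FPKM in WT and 21.2 FPKM in KO, a difference of -2.51. Msgn1 (chr12:11208382-11208948), the basic helix-loop-helix factor that drives presomitic mesoderm differentiation, had 154 FPKM in WT and 61.3 FPKM in KO, a difference of -1.32. Thus the KO library still held substantial Msgn1, whereas other mesodermal genes came close to 0. Pcdh19, a protocadherin of the paraxial mesoderm, had 19.2 FPKM in WT and 0.213 FPKM in KO, the lowest difference of any gene compared at -4.05. The forkhead factor Foxc1 (chr13:31806646-31810635), which is needed for somite formation together with Foxc2, had 41.7 FPKM in WT and 1.71 FPKM in KO, a difference of -3.98. Foxc2 had 5.67 FPKM in WT and 0.312 FPKM in KO. Both forkhead genes were thus lower in the same library, at very different starting levels.

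Genes of the anterior presomitic mesoderm and newly formed somites followed the same direction. Meox1, a homeobox factor of the early somite, had 16.8 FPKM in WT and 0.781 FPKM in KO, a difference of -3.32. Tcf15 (Paraxis), which makes somites epithelial, had 15.1 FPKM in WT and 5.65 FPKM in KO. Aldh1a2, the enzyme that makes retinoic acid in somitic mesoderm, had 6.58 FPKM in WT and 2.37 FPKM in KO. Cited1, a transcriptional co-regulator, differed by -1.72. The segmentation factors of the somite boundary were near the floor of the assay even in WT. Ripply2 had 1.51 FPKM in WT and was listed at 0 in KO, and Mesp2 had 0.0151 FPKM in WT and was listed at 0 in KO.

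Not every presomitic gene was low. Dll3, a Notch modulator of the presomitic mesoderm, had 36.8 FPKM in WT and 28.9 FPKM in KO. The clock gene Hes7 had 8.70 FPKM in WT and 6.82 FPKM in KO, a difference of -0.31. Rspo3, a secreted enhancer of Wnt signalling expressed in tail bud and presomitic mesoderm, had 124 FPKM in WT and 208 FPKM in KO, a difference of 0.74. None of these 3 genes reached 2-fold in either direction.

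The Notch list split between its members. Of 15 genes compared, 3 were 2-fold lower (Dll1, Lfng, Nrarp) and 2 were 2-fold higher (Jag1, Hes6), with a median of -0.40. Lfng reached the minimum through the WT library alone, and of the 14 with at least 5 FPKM in both libraries 2 were lower and 2 higher. Nrarp, a feedback inhibitor that is itself a Notch target, had 85.6 FPKM in WT and 6.96 FPKM in KO, a difference of -3.44. The glycosyltransferase Lfng, which modifies Notch and oscillates with the segmentation clock, had 16.1 FPKM in WT and 4.92 FPKM in KO. The ligand Jag1 ran the other way, with 19.01 FPKM in WT and 40.6 FPKM in KO. The receptors Notch1 and Notch2 differed by -0.64 and -0.67, and the targets Hes1 and Hey1 by -0.48 and -0.40, so receptors and broad targets were below 2-fold while Dll1 and Nrarp were far beyond it.

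The other genes among the 15 lowest had varied roles. Frzb, a secreted Wnt antagonist, had 37.1 FPKM in WT and 2.13 FPKM in KO, a difference of -3.61. Nkd2, an intracellular feedback inhibitor of Wnt signalling, had 39.2 FPKM in WT and 3.97 FPKM in KO. Fst (follistatin), which binds activin, had 11.3 FPKM in WT and 0.442 FPKM in KO. The semaphorin receptor Plxna2 had 13.2 FPKM in WT and 0.664 FPKM in KO, and the netrin Ntn1 had 7.80 FPKM in WT and 0.349 FPKM in KO. Gzmk, which encodes a granzyme protease, had 11.4 FPKM in WT and was listed at 0 in KO. The rest of the 15 lowest were Dppa3 and Pglyrp3, both listed at 0 in KO from 8.21 and 6.35 FPKM in WT, Foxf1 (-2.76), S1pr5 (-2.76) and Phlda2 (-2.69).

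The lower genes were not limited to paraxial mesoderm. The list for lateral plate and intermediate mesoderm had 6 members above the minimum, of which 4 were 2-fold lower and 0 higher, with a median of -1.54. With a pseudocount of 5 in place of 1, 1 of these passed 2-fold, and with a minimum of 20 FPKM 0 were left to compare. Of the 6, 5 reached the minimum through the WT library alone, which favours lower values. The lateral plate forkhead factor Foxf1 had 15.1 FPKM in WT and 1.37 FPKM in KO, and Osr1, Isl1 and Hand2 differed by -1.73, -1.62 and -1.45. The endothelial receptors Kdr and Tek differed by -2.15 and -1.61. Krt8 and Krt18, keratins of simple epithelia, differed by -1.53 and -1.86, while Noto, a notochord homeobox gene, had 19.9 FPKM in WT and 5.58 FPKM in KO. Summed over the 6 lateral plate markers the level was 36.7 FPKM in WT and 8.07 FPKM in KO, over the 3 notochord markers 27.4 and 7.77 FPKM, and over the 4 surface ectoderm markers 53.7 and 15.5 FPKM, nearly all of it from Krt8 and Krt18. Over the 4 endoderm markers the sum was 5.87 FPKM in WT and 6.33 FPKM in KO. Within it Epcam, an epithelial surface protein, had 3.06 FPKM in WT and 5.70 FPKM in KO. Foxa2 ran the other way, with 2.32 and 0.489 FPKM, as did Sox17, with 0.485 and 0.140 FPKM. The neural crest marker Foxd3 and the endoderm marker Ttr were listed at 0 in both. Hence the lateral plate and notochord sums were lower along with the paraxial genes, while the endoderm sum was not lower because of Epcam alone. The notochord marker Chrd went against its sum, with 0.598 FPKM in WT and 1.21 FPKM in KO. The part that the mix of sorted cells has in the differences was not tested.

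Genes of the posterior progenitor state were higher in the Tbx6 KO library. Of 15 axial progenitor genes compared, 10 were 2-fold higher and 1 was 2-fold lower, with a median of 1.28. Nkx1-2, Fgf4 and Sp5 reached the minimum through the KO library alone, and of the 12 with at least 5 FPKM in both libraries 8 were higher and 1 lower. T (chr17:8434423-8442496), the T-box factor of mesoderm progenitors, had 166 FPKM in WT and 471 FPKM in KO, a difference of 1.49. The homeobox gene Nkx1-2 (chr7:132596239-132599637), a marker of the preneural tube and of neuro-mesodermal progenitors, had 4.73 FPKM in WT and 38.6 FPKM in KO, a difference of 2.79. Cyp26a1, the enzyme that degrades retinoic acid in the tail bud, had 32.8 FPKM in WT and 238 FPKM in KO, a difference of 2.82. T and Cyp26a1 were therefore well expressed in WT already, whereas Nkx1-2 was close to the minimum there.

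The ligands that maintain the tail bud shared this direction. Wnt3a, the Wnt ligand on which the progenitor pool depends, had 16.02 FPKM in WT and 40.4 FPKM in KO. Fgf8 had 15.7 FPKM in WT and 46.7 FPKM in KO, and Fgf17 had 18.8 FPKM in WT and 54.7 FPKM in KO. The caudal homeobox factor Cdx2, which specifies posterior tissue, had 40.7 FPKM in WT and 106 FPKM in KO. Sp8, a zinc-finger factor downstream of Wnt signalling, differed by 1.75, Wnt5b by 1.16 and Fgf4 by 1.19. Gbx2, a homeobox gene of the posterior neural plate, was the exception, with 17.8 FPKM in WT and 6.92 FPKM in KO.

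Of 17 FGF genes compared, 3 were 2-fold higher (the ligands Fgf4, Fgf8 and Fgf17) and 0 were lower, with a median of 0.73. Fgf4, Fgf18 and Spry1 reached the minimum through the KO library alone, which favours higher values, and Fgf15 through the WT library alone. Of the 13 FGF genes with at least 5 FPKM in both libraries, 2 were higher and 0 lower. The ligands Fgf18, Fgf3 and Fgf15 differed by 0.91, 0.42 and -0.96. The feedback regulators Spry4, Dusp6 and Il17rd differed by 0.92, 0.78 and 0.75, Spry2 and Spred2 by 0.11 and 0.05, the target Etv4 by 0.06 and the receptor Fgfr1 by 0.01, so no target or feedback gene of the list reached 2-fold. The Wnt list was split, with 4 of 18 genes 2-fold higher and 5 lower. Nkd2, Sfrp1 and Frzb reached the minimum through the WT library alone, which favours lower values, and Sp5 and Notum through the KO library alone. Of the 13 with at least 5 FPKM in both libraries, 3 were higher and 2 lower. Among Wnt pathway genes the ligands Wnt3a and Wnt5b and the secreted inhibitor Notum were higher, the feedback gene Axin2 differed by 0.75, and the antagonists Frzb, Sfrp1 and Dkk1 with the effector Lef1 were lower. In the retinoic acid list, where 2 of 8 genes were higher and 2 lower, the synthesising enzyme Aldh1a2 was lower and the degrading enzyme Cyp26a1 higher. Aldh1a2 and Rdh10 reached the minimum through the WT library alone. Of the 6 with at least 5 FPKM in both libraries, 2 were higher and 1 lower.

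**Figure D2:**
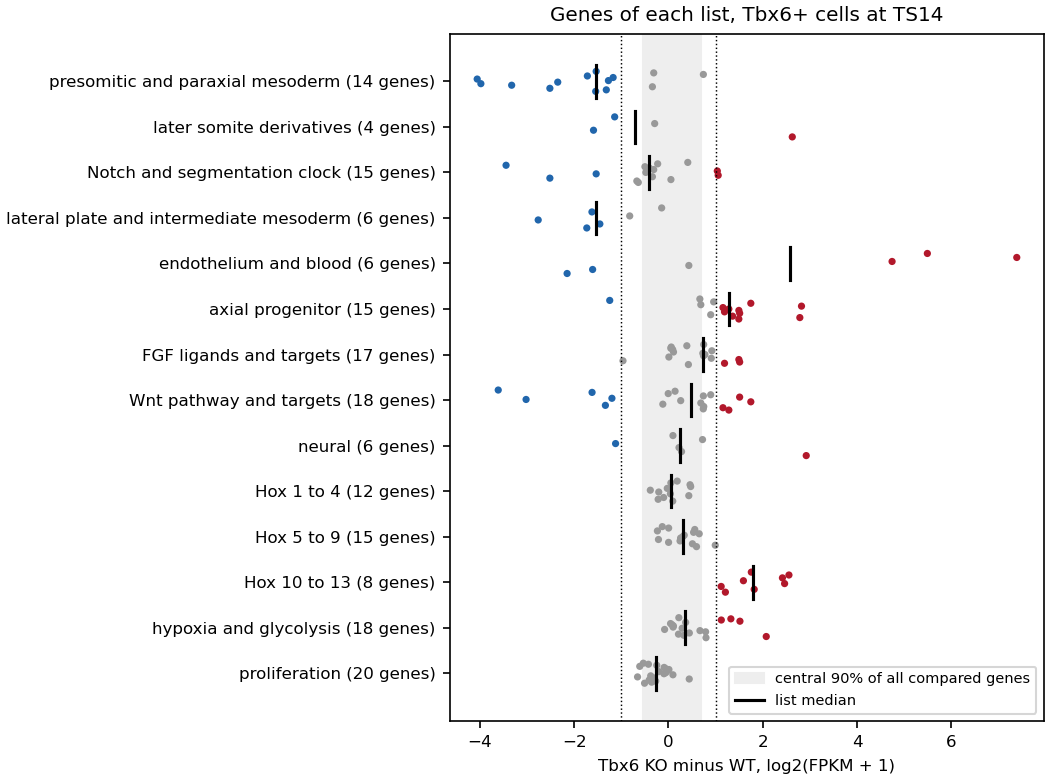
Each point is the KO minus WT difference, log2(FPKM + 1), of 1 gene of the named list, black bars are list medians, the grey band spans the 5th to 95th percentiles of all 7719 genes and dotted lines mark 2-fold. The presomitic list sits left of the band apart from 3 genes, the Hox 10 to 13 list lies to the right of it, and so does most of the axial progenitor list.

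Sox2 was the neural gene with the largest difference. Sox2 (chr3:34649995-34652461), the factor of neural progenitors, had 4.70 FPKM in WT and 42.3 FPKM in KO, a difference of 2.92. Sox1, which marks committed neural progenitors, had 0.405 FPKM in WT and 0.991 FPKM in KO, and Sox3 had 0.410 FPKM in WT and 0.668 FPKM in KO. Both were under 1 FPKM in either library. Pax6, a factor of the neural tube, had 1.39 FPKM in WT and 0.838 FPKM in KO. Of 6 neural genes compared, 1 was 2-fold higher (Sox2) and 1 lower (Fabp7), while Ncam1, Foxb1, Nes and Cdh2 differed by 0.72, 0.28, 0.23 and 0.10. Sox2 reached the minimum through the KO library alone. Among neural genes under the minimum, Zic5 had 0.466 FPKM in WT and 2.228 FPKM in KO, and Lrp2 had 1.31 and 3.66 FPKM. Finally, 0 of 22 genes of neural tube patterning and neurogenesis reached 5 FPKM in either library. Pax3, a factor of the dorsal neural tube and of somites, had 1.95 FPKM in WT and 17.2 FPKM in KO.

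The posterior end of the Hox clusters was higher in the Tbx6 KO library. Of 12 genes of paralogue groups 10 to 13, 8 reached the 5 FPKM minimum and these were at least 2-fold higher, with a median of 1.79, against 0 of 12 in groups 1 to 4 (median 0.05) and 0 of 15 in groups 5 to 9 (median 0.31). Hoxc11, Hoxd12 and Hoxd13 reached the minimum through the KO library alone, so that a difference was built into their selection, and of the 5 genes with at least 5 FPKM in both libraries 5 were higher. Hox genes give positional identity along the body axis, and the higher paralogue numbers are switched on later and further back. Hoxd11 had 9.03 FPKM in WT and 52.7 FPKM in KO, a difference of 2.42. Hoxd12 had 0.1499 FPKM in WT and 5.77 FPKM in KO, and Hoxc11 had 1.56 FPKM in WT and 13.2 FPKM in KO. The other 5 genes were Hoxa11 (1.82), Hoxd13 (1.76), Hoxd10 (1.59), Hoxa10 (1.21) and Hoxc10 (1.12). By contrast Hoxa9 had 95.05 FPKM in WT and 95.4 FPKM in KO, and Hoxd9 differed by -0.13, both well under 2-fold. Hoxa6, with 2.34 FPKM in WT and 5.66 FPKM in KO, was just under the threshold at 0.99 and passed it with a pseudocount of 0.1 (1.24) or with the median difference set to 0 (1.03). The 4 further genes of groups 10 to 13 were below 5 FPKM in both, with differences of -0.18 for Hoxa13, 1.50 for Hoxc12 and 0.83 for Hoxc13, and Hoxb13 listed at 0 in both. With a minimum of 20 FPKM, 5 of 5 genes of groups 10 to 13 were higher. These are the same 5 genes that had at least 5 FPKM in both libraries. Among them Hoxa11 (5.75 FPKM in WT and 22.8 FPKM in KO) and Hoxd11 reached 20 FPKM through the KO library alone.

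Noncoding RNAs of the Hox clusters, named after their values were seen, did not share 1 direction. Hotair, transcribed from the HoxC cluster between Hoxc11 and Hoxc12, had 0.184 FPKM in WT and 7.76 FPKM in KO. Hoxa11os, on the strand opposite Hoxa11, had 4.86 FPKM in WT and 32.7 FPKM in KO. Hoxaas3, an antisense transcript of the HoxA cluster, had 71.5 FPKM in WT and 67.6 FPKM in KO. The library kit keeps strand, but the strand setting of the counting is not given in the sources used here, so reads of Hoxa11 and Hoxa11os may not be fully separated.

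**Figure D3:**
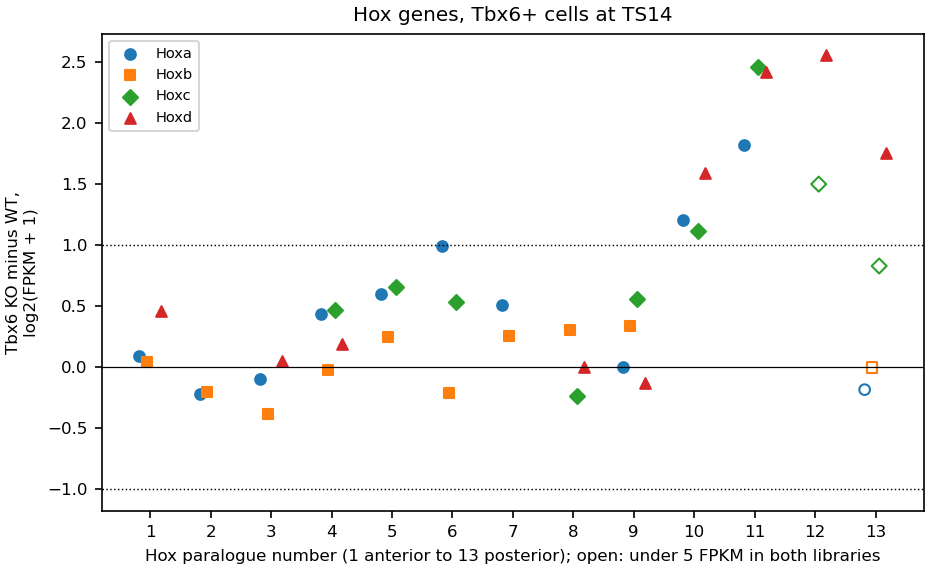
The KO minus WT difference, log2(FPKM + 1), of each Hox gene is plotted against its paralogue number, with a marker shape per cluster and open markers for genes under 5 FPKM in both libraries. All 8 filled markers at paralogue numbers 10 to 13 lie above the upper 2-fold line, and those at 1 to 9 lie between the lines.

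Beyond these lists, the upper end held single genes with large differences. Pmaip1 (Noxa), a pro-apoptotic BCL2 family gene and p53 target, had 7.13 FPKM in WT and 114 FPKM in KO, while Btg2, another p53 target, had 81.4 FPKM in WT and 26.1 FPKM in KO. Of the 10 p53 target and cell cycle inhibitor genes compared, 1 was higher and 1 lower, with a median of -0.36. Igfbp3, which binds insulin-like growth factors, had 8.53 FPKM in WT and 156 FPKM in KO, a difference of 4.05. The collagen gene Col12a1 had 0.277 FPKM in WT and 9.69 FPKM in KO, and Col1a2 had 3.60 FPKM in WT and 29.9 FPKM in KO. Rgs4, which dampens G-protein signalling, had 0.487 FPKM in WT and 17.8 FPKM in KO. Gpr128, an adhesion-type receptor, and Cd83, an immune surface protein, differed by 3.38 and 3.04.

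Cell surface molecules of tissue boundaries differed in both directions. Of 17 cadherin, ephrin and Eph receptor genes, 5 were 2-fold higher (Cdh3, Cdh6, Efna1, Epha1, Epha2) and 3 lower (Pcdh19, Efnb1, Efnb2). All the lower genes reached the minimum through the WT library alone, which favours lower values, and Cdh6 reached it through the KO library alone. Of the 11 with at least 5 FPKM in both libraries, 4 were higher and 0 lower. Ephrins and their Eph receptors sort cells at tissue boundaries, and cadherins hold like cells together. Cdh6 had 1.80 FPKM in WT and 11.5 FPKM in KO, and Epha1 had 11.4 FPKM in WT and 38.1 FPKM in KO. Efnb2, an ephrin of the posterior part of each somite, had 6.01 FPKM in WT and 1.88 FPKM in KO. Cdh2 (N-cadherin) had 58.7 FPKM in WT and 62.8 FPKM in KO, and 0 of 10 genes of the epithelial-mesenchymal transition list passed 2-fold.

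Glucose handling differed in a few genes. The glucose transporter Slc2a3 had 73.5 FPKM in WT and 313 FPKM in KO, and the hypoxia-responsive genes Bnip3, Egln3 and Pdk1 differed by 1.52, 1.33 and 1.12. These 4 of 18 hypoxia and glycolysis genes were 2-fold higher, and the glycolytic enzymes Ldha (0.05), Eno1 (0.11) and Gapdh (-0.08) were nearly level. Egln3 reached the minimum through the KO library alone, and of the 17 with at least 5 FPKM in both libraries 3 were higher. Of 20 proliferation genes, 0 passed 2-fold in either direction, with a median of -0.26.

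Globins were 4 of the 5 genes with the highest differences. Hbb-y had 0.0472 FPKM in WT and 175 FPKM in KO, Hbb-bh1 had 0.192 and 52.7 FPKM, and Hba-x had 0.0487 and 27.1 FPKM. Hba-a2 differed by 6.23, and since its copy Hba-a1 is nearly identical its value is uncertain. Other red cell genes were low in KO, where Alas2 had 1.21 FPKM, Slc4a1 1.09 FPKM and Gata1 0.0967 FPKM. The summed level of the 6 endothelium and blood markers was 18.2 FPKM in WT and 83.7 FPKM in KO, and the higher sum came from Hba-x and Hbb-bh1. Its other markers were mostly lower in KO. Kdr had 12.8 FPKM in WT and 2.11 FPKM in KO, Cdh5 had 2.96 and 1.21 FPKM, and Tal1 had 2.16 and 0.435 FPKM. Gata1 was listed at 0 in WT. The part of red cell RNA in the other differences was not tested. With red cell genes left out, 189 genes were higher and 123 lower. Rps27, at 7.49 FPKM in WT and 246 FPKM in KO, encodes a ribosomal protein with many near-identical copies and is uncertain.

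Some imprinted genes differed by large amounts. H19, an imprinted noncoding RNA (chr7:142575530-142578146), had 43.2 FPKM in WT and 1036 FPKM in KO, while its neighbour Igf2 had 264 FPKM in WT and 139 FPKM in KO. Nnat had 15.0 FPKM in WT and 79.3 FPKM in KO, and Phlda2 had 14.0 FPKM in WT and 1.31 FPKM in KO. Of 19 imprinted genes compared, 3 were higher and 3 lower, with a median of -0.07. Phlda2 and Zrsr1 reached the minimum through the WT library alone, and Rian and Plagl1 through the KO library alone. Of the 15 with at least 5 FPKM in both libraries, 2 were higher and 2 lower. Whether these values belong to the genotype or to the ES cell line of each embryo cannot be told apart with 1 library each. Leaving out Y-linked and imprinted genes gave 190 higher and 119 lower genes.

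The T knockout gave a separate set of libraries for comparison. T+ cells of embryos with the T2J/2J deletion (strain label C57BL/6J) and T+ cells of WT embryos (strain label C57BL/6N) were profiled at TS12 and TS13, 1 library each, and none of these 4 libraries was shared with the Tbx6+ pair. The T KO and T+ WT libraries differ in strain label there, so that genotype and strain cannot be told apart in those pairs. The Y-linked genes Ddx3y, Eif2s3y and Uty were at most 0.373 FPKM in the T+ WT libraries and at least 9.60 FPKM in the T KO libraries, whereas both Tbx6+ libraries had at least 13.4 FPKM of each.

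Several presomitic genes were lower in the Tbx6 KO and in the T KO. Of the 123 lower genes, 91 were above the minimum in both T pairs, and 15 of them (16.5%) were also 2-fold lower at TS12 and at TS13, against 0.446% of 7179 genes. These were Adam19, Dkk1, Dll1, Dppa3, Eogt, Foxc1, Foxf1, Frzb, Lhfp, Meox1, Msgn1, Nrarp, Pcdh19, Plxna2 and Pou5f1. Of the 193 higher genes, 110 were measured in both T pairs, and 4 (3.64%) were also 2-fold higher at both stages (Bmf, Nkx1-2, Sema3a, Tcea3) while 7 (6.36%) were 2-fold lower at both (Amph, Arg1, Cyp26a1, H19, Hba-a2, Rian, Uap1l1). Across all 7179 genes the difference in the Tbx6+ pair and the mean T KO difference had a Pearson r of 0.08 and a Spearman rho of 0.10. Among these 7179 genes, 32 were 2-fold lower at both stages of the T KO, and the lower genes include 15 of them. Likewise 13 were 2-fold higher at both, and the higher genes include 4 of them. Genes under 5 FPKM in both Tbx6+ libraries are outside these counts, among them Meg3, lower at both T KO stages, and Sox3, higher at both.

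A linear model in limma over the 6 libraries asked where the Tbx6 KO difference departed from the mean T KO difference. Its spread comes from the disagreement between the TS12 and TS13 T KO differences (1 residual degree of freedom per gene, shrunk across genes), and the Tbx6+ pair is assumed to vary like the T+ libraries. T, Tbx6 and Sox2 were left out. Of 8484 genes, 69 (0.813%) had a Tbx6 KO difference above the T KO difference and 27 (0.318%) below it at a Benjamini-Hochberg adjusted p under 0.05, with 877 at an unadjusted p under 0.05. With a minimum of 20 FPKM the counts were 24 and 5, and with a pseudocount of 5 they were 59 and 10. Stage, sorted marker and strain differ between the pairs along with the gene knocked out, so the contrast compares pairs of libraries, and these factors cannot be told apart.

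Posterior progenitor genes were among those called. Of 18 axial progenitor genes tested, 6 were above (Nkx1-2, Fgf8, Fgf4, Fgf17, Cyp26a1, Mixl1) and 0 below, and of 17 FGF genes 5 were above. Fgf4, Fgf8 and Fgf17 are in both lists. A gene called above need not be higher in the Tbx6 KO library. Mixl1 had 4.19 FPKM in WT and 4.13 FPKM in Tbx6 KO, with T KO differences of -2.27 and -2.66. Fgf3 differed by 0.42 in the Tbx6+ pair and by -2.03 and -2.52 in the T pairs. Cyp26a1 had a difference of 2.82 in the Tbx6+ pair and of -1.88 and -3.47 in the T pairs, a contrast of 5.50 (limma SE 0.49, adjusted p = 0.000228). Fgf8 had 25.1 FPKM in WT and 17.2 FPKM in T KO at TS12, and 30.1 and 4.49 FPKM at TS13, a contrast of 3.03 (SE 0.58, limma adjusted p = 0.0368). Fgf8 thus ran in opposite directions in the 2 knockouts. Wnt3a had a contrast of 2.93 (SE 0.71) that did not pass (limma adjusted p = 0.0925), with T KO differences of -0.41 at TS12 and -2.88 at TS13. Nkx1-2 was higher in both knockouts, by 1.12 and 1.20 in the T KO and by 2.79 in the Tbx6 KO library (contrast 1.63, SE 0.25, limma adjusted p = 0.0102).

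Of 13 presomitic genes tested, 2 were called above (Msgn1, Rspo3) and 1 below (Foxc1), and most were not called. Dll1 was lower in both, by -2.51 in the Tbx6 KO library and by -2.47 and -3.03 in the T KO, with a contrast of 0.24 (SE 0.29, limma adjusted p = 0.854). Msgn1 was lower in both but less so in the Tbx6 KO library, where the difference was -1.32 against -3.69 and -4.32 (contrast 2.69, SE 0.30, limma adjusted p = 0.00123). Foxc1 was lower by more in the Tbx6 KO library, at -3.98 against -1.61 and -1.25 (contrast -2.55, SE 0.33, limma adjusted p = 0.0029). Outside the presomitic list, Nrarp (-2.12), Frzb (-1.96), Nkd2 (-2.42) and Fst (-2.47) were called below as well. Rspo3 was lower in the T KO, with 49.2 and 10.6 FPKM at TS12 and 56.1 and 7.66 FPKM at TS13, and its contrast was 3.16 (SE 0.30, limma adjusted p = 0.000316).

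Of 12 neural genes in the contrast, 0 were called in either direction. Sox1 in the T KO had 1.27 FPKM at TS12 and 9.98 FPKM at TS13, against 0.339 and 0.569 FPKM in WT, and Sox3 had 6.24 and 11.0 FPKM against 2.12 and 1.99 FPKM. Neither contrast passed (Sox1 -1.28, SE 0.85, limma adjusted p = 0.674, and Sox3 -1.37, SE 0.54, limma adjusted p = 0.391), so a difference between the knockouts was not detected for either gene. Of the Hox 10 to 13 genes, 4 of 8 tested were called above (Hoxa10, Hoxc10, Hoxd10, Hoxd11). Hoxd11 was at most 0.726 FPKM in the 4 T+ libraries, so its contrast of 3.16 (SE 0.51, limma adjusted p = 0.0141) sets expressed values at TS14 against values near 0 at the earlier stages. Imprinted H19 (contrast 9.85) and Rian (8.19) and the 3 Y-linked genes were called too, and with Y-linked, imprinted and red cell genes left out the counts were 58 above and 20 below.

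**Figure D4:**
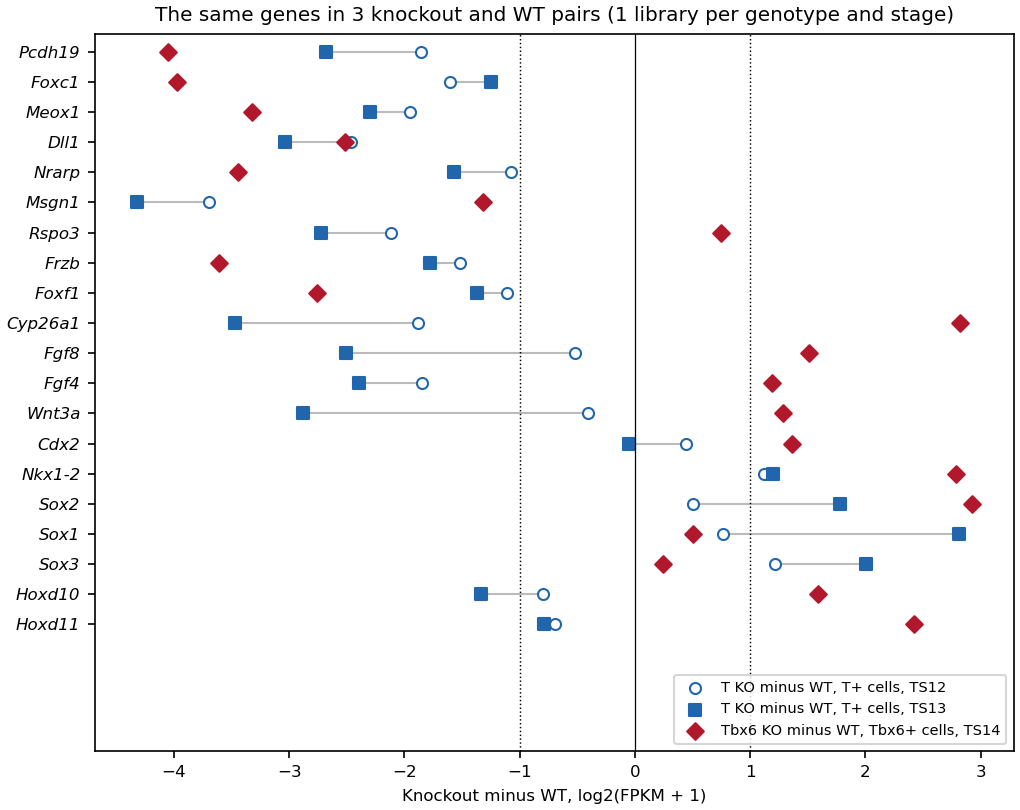
Each row is 1 gene and the x axis is knockout minus WT on the log2(FPKM + 1) scale, with red diamonds for the Tbx6+ pair at TS14, open blue circles for T+ cells at TS12 and filled blue squares at TS13. Pcdh19, Foxc1, Meox1, Dll1, Nrarp and Msgn1 lie left of 0 in every pair, while Cyp26a1, Fgf8, Fgf4 and Wnt3a lie right of 0 in the Tbx6+ pair and left of 0 in both T pairs.

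WT cells sorted for T and Sox2 at TS12 show where these genes are normally expressed. The sort table holds 1 library each of T+, T+ Sox2+ and Sox2+ cells (strain label C57BL/6N) and was normalised apart from the knockout table, so only ratios within it are used. Of the 108 lower genes measured there, 74 (68.5%) were enriched 2-fold or more in T+ over Sox2+ cells and 0 in Sox2+ over T+ cells, against 2.50% of all 7307 genes. Of the 153 higher genes measured, 47 (30.7%) were 2-fold higher in Sox2+ than in T+ cells, against 1.86% of all genes, and 11 (7.19%) in T+ cells. Meox1 had 28.6 FPKM in T+ and 0.555 FPKM in Sox2+ cells, and Nkx1-2 had 1.00 FPKM in T+, 25.8 FPKM in T+ Sox2+ and 56.3 FPKM in Sox2+ cells. Cyp26a1 had 23.9 FPKM in T+, 184 FPKM in T+ Sox2+ and 140 FPKM in Sox2+ cells. In WT, then, genes low in the Tbx6 KO library were mostly T+ genes, and 42 (27.5%) of the higher genes were 2-fold above T+ cells in the T+ Sox2+ fraction, against 1.15% of all genes. In the reverse direction, 28 (25.9%) of the lower genes were 2-fold higher in T+ than in the T+ Sox2+ fraction, against 0.958% of all genes.

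**Figure D5:**
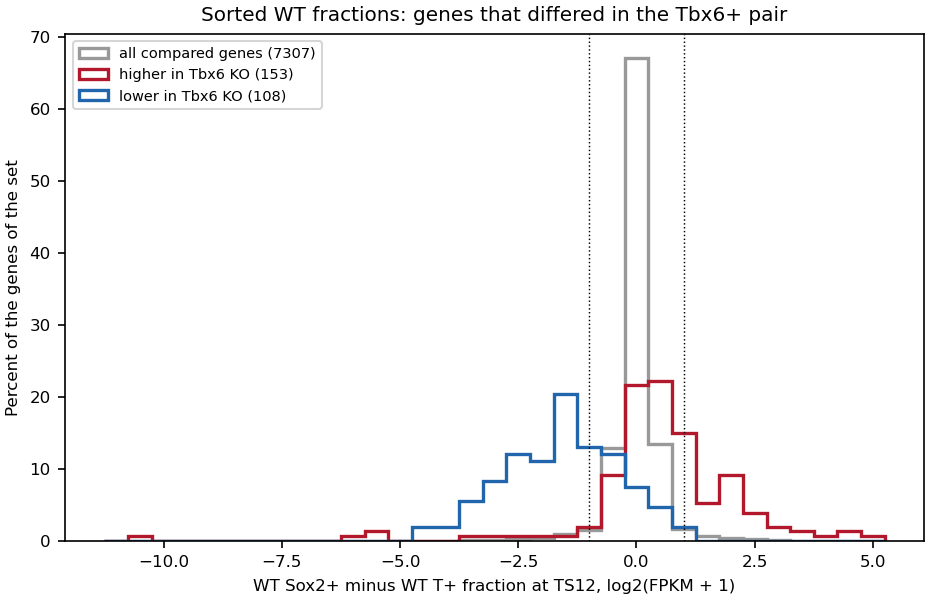
The x axis is the WT Sox2+ minus WT T+ difference at TS12, log2(FPKM + 1), and the y axis is the percent of each gene set in bins of 0.5. The 108 genes lower in the Tbx6 KO library lie mainly at negative values, the 153 higher genes are shifted to positive values, and all 7307 genes centre on 0.

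Promoters of the genes that differed were searched for the sequence AGGTGT, the core that T-box factors bind, and for the longer AGGTGTGA, which contains it, on both strands in the window from 250 bases before to 50 after the start (RefSeq, GRCm38.p6). AGGTGT occurred in 15 of 91 promoters of lower genes (16.5%), in 11 of 138 promoters of higher genes (7.97%), in 9.60% of 5981 compared genes and in 13.9% of all 27025 promoters. AGGTGTGA occurred in 2 of 91, 1 of 138, 0.635% and 1.27%. Among the 15 lowest genes with an entry, Gzmk and Frzb held the core, and Aldh1a2 held it 12 bases before its start. These 3 promoters are printed 5′ to 3′ on the strand of the gene with the core in capitals, as AGGTGT or as ACACCT where it lies on the other strand. The windows are chr13:113180916-113181215 on the minus strand for Gzmk, chr2:80447347-80447646 on the minus strand for Frzb and chr9:71215539-71215838 on the plus strand for Aldh1a2.
Gzmk: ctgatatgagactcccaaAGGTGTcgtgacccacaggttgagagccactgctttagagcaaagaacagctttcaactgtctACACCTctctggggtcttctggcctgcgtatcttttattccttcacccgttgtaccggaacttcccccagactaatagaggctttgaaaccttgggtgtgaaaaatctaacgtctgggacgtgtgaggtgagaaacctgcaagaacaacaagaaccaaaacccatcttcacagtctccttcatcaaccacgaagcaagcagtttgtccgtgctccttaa
Frzb: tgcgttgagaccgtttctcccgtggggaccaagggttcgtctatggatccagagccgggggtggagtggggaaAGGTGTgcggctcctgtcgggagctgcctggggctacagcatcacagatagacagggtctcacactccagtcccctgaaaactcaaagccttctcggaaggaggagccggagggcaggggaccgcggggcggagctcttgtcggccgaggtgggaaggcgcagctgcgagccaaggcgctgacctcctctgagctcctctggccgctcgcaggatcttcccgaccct
Aldh1a2: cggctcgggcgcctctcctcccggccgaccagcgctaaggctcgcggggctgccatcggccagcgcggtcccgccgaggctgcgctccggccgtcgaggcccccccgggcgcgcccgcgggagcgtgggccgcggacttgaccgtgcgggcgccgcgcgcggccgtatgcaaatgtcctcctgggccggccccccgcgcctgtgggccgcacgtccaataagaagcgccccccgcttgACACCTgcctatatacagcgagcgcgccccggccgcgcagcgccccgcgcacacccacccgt
Msgn1, Dll1, Foxc1, Pcdh19, Lfng and Nrarp had no match in this window, which says only that these letters are not there. Mesp2, under the minimum in both libraries, had 1 match. The 11 higher genes with the core include T, Cyp26a1, Sp8 and Col1a2, while Sox2 and Nkx1-2 had no match. A match describes the sequence and shows neither binding nor a cause.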

How the data were processed

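The authors deposited FPKM tables of 23983 gene symbols, 1 for the 6 knockout libraries and 1 for the 3 sorted WT libraries. Per the submitters' processing notes, TopHat2 2.1.0, Bowtie 1.1.2, Cufflinks 2.2.1 and Cuffdiff are named with build mm10, without roles. No counts were used. FPKM values were tested as log2(FPKM + 1), with a minimum of 5 FPKM in 1 library and 2-fold (a difference of 1) as the size threshold.

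Depth was estimated from the steps of low FPKM values of short genes, where 160 of 1170 WT and 137 of 1166 KO low genes lay on the steps, against 10 and 11 after lengths were shuffled. Depth behind each multi-exon gene is not known.

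The contrast with the T knockout used limma 3.58.1 with Benjamini-Hochberg adjustment, and was tested on simulated data of 8487 genes. There 64 of 100 planted 2-fold changes and all 100 planted 4-fold changes were found, and 6 calls were false. Every simulated gene had the same noise, an SD of 0.15 on the log2 scale. In the real fit the SE varied by gene, for example 0.30 for Msgn1 and 0.85 for Sox1. These rates therefore do not carry over to genes with a larger SE. The members, gene lists and tests were chosen with earlier results of these data known. Named genes are the 15 highest and 15 lowest, 2-fold members of the 32 lists, Tbx6, T, Sox genes and segmentation genes, the 3 nearest to each threshold and the 10 largest called contrasts. Other genes were named after their values were seen. Alternatives were other pseudocounts, minimums, scalings and gene exclusions. Leaving out red cell genes, ribosomal protein genes, or Y-linked, imprinted and red cell genes in the contrast was chosen after seeing the data.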

Additional observations from a re-analysis of the deposited data

How the results depend on the processing

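No alternative could reverse the direction of a gene at least 2-fold different. A pseudocount, a minimum or an exclusion keeps the sign of a difference. The scalings only moved the median of all genes from -0.037 to -0.026 and to 0. The counts of higher and lower genes were 91 and 54 with a pseudocount of 5, 323 and 199 with a minimum of 1 FPKM or with none, and 87 and 41 with a minimum of 20 FPKM. Other scalings, exclusions and a pseudocount of 0.1 gave 189 to 236 higher and 118 to 141 lower. With a minimum of 20 FPKM, 5 Hox 10 to 13 genes were higher, 5 presomitic genes (Tbx6 included) lower and 0 lateral plate genes lower. Fewer genes were compared at that minimum, and some of those counted passed it through 1 library alone. With a pseudocount of 5 only 1 lateral plate gene was lower. The contrast with the T KO gave 24 above and 5 below at a minimum of 20 FPKM, and 10 below with a pseudocount of 5. Set against 1 T KO stage alone, with no test, 288 genes were 2-fold above and 229 below for TS12, and 388 above and 187 below for TS13. Of 456 values of 114 named genes under 4 alternatives, 409 stayed on their side of 2-fold and 47 crossed it. That 0 reversed was fixed in advance, since only genes at least 2-fold different could be counted as reversed. No paired analysis was possible because each Tbx6+ group has 1 library.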

Other observations

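The genes named here were picked one by one after their values were seen, and they stand for no tested group. Acadl, which starts the oxidation of long-chain fatty acids, had 2.38 FPKM in WT and 9.73 FPKM in the Tbx6 KO library. Hadhb, a subunit of the mitochondrial trifunctional protein, had 19.9 and 43.1 FPKM, and Oxct1, which activates ketone bodies, had 15.8 and 40.4 FPKM. Their contrasts were 2.92, 1.57 and 2.06 with limma adjusted p of 0.00658, 0.0235 and 0.0102. The enzymes Oat and Arg1 of ornithine and arginine metabolism also were higher, Oat with 57.1 and 185 FPKM and Arg1 with 13.7 and 71.6 FPKM, and Arg1 was at most 0.430 FPKM in the T KO libraries.

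Irf1, an interferon-regulated transcription factor, had 4.77 FPKM in WT and 19.4 FPKM in KO, Nmi had 1.69 and 9.05 FPKM, and the proteasome activator Psme2 had 29.1 and 69.1 FPKM (a value that may share reads with its copy Psme2b).

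Tpm1, an actin-binding tropomyosin, was the most abundant gene beyond 2-fold, with 1115 FPKM in WT and 3378 FPKM in KO. Nr6a1, a nuclear receptor known for its part in trunk development, had 12.8 FPKM in WT and 1.75 FPKM in KO, and its level in the 4 T+ libraries lay between 59.7 and 131 FPKM. The chemokine Cxcl12 had 5.61 FPKM in WT and 1.23 FPKM in KO, and the Wnt receptor Fzd7 had 24.8 and 5.45 FPKM.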
